A study of Homo sapiens with 4 samples.

Results

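The S100 genes encode small calcium-binding proteins, and 10 of them were followed in the human leukaemia line NOMO-1 after hairpins against ZFX were delivered by lentivirus. The 10 genes were S100A4, S100A6, S100A8, S100A9, S100A10, S100A11, S100A12, S100A13, S100B and S100P, out of 18417 genes that the array platform names under 1 symbol. All 10 were represented by 1 probe set each, so no choice between probe sets had to be made. Of the 10, 9 passed the filter on dim genes (a mean log2 intensity of 6.70 over the 4 arrays) and were among the 12892 genes tested, while S100B did not pass and is described by its values only.

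The ZFX knock-down group held 2 arrays, ZFX-SH1 and ZFX-SH3, each from cells that carried a different hairpin against ZFX, and the control group held 2 arrays, LEN-GFP from cells with a GFP lentivirus and SCR from cells with a scrambled hairpin. ZFX, a zinc finger transcription factor, is wild type in the control cells per the labels. All cells were infected at an MOI (infectious viral units per cell) of 1, and RNA was taken 48 h after selection. Every construct has 1 array and no source says that the cultures were separate, so the error in every p-value mixes the difference between constructs with that between arrays and may be technical. NOMO-1 is 1 established line of monocytic acute myeloid leukaemia, so the values describe that line only.

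S100 proteins carry a pair of EF-hand calcium-binding loops, mostly form dimers, and open a binding surface for a partner protein when calcium is bound (S100A10 is the exception, with loops that no longer bind calcium). Inside the cell they bind annexins, myosin and other proteins of membrane and cytoskeleton, and several are also released and bind receptors such as AGER (RAGE) and TLR4. S100A8, S100A9 and S100A12, the calgranulins, are abundant in neutrophils and monocytes and are used as markers of myeloid maturation and inflammation. Most genes of the family lie together on chromosome 1.

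Both hairpin arrays lay above both controls for S100A4, S100A6, S100A10 and S100A11, and below both for S100P, while the groups overlapped for the 3 calgranulins and S100A13. S100P had the widest difference, at 70.3% of its control level, and S100A4 was the highest relative to control, at 130%. Groups without overlap thus made up 5 of the 9 genes tested (55.6%), against 37.2% of all genes tested. The 4 genes above both controls were 44.4% of the 9, beside 18.2% of all genes, and the 1 gene below both was 11.1%, beside 19% of all genes. limma, a linear model with moderated variances fitted across all genes and all 4 arrays (2 against 2), called none of the 9 genes at an adjusted p under 0.05, and 0 of the 12892 tested (0%). At an unadjusted p under 0.05 in limma there was 1 S100 gene, S100P (11.1% of the 9), beside 6.04% of all genes.

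The bases before the annotated starts of the 5 genes whose groups did not overlap are shown, since these are the members whose arrays separated by group. They are the 250 bases upstream of the start in RefSeq (GRCh38.p14), 5′ to 3′ on the gene's strand. Capitals mark 4 sets of letters searched on both strands over these bases and the first 50 transcribed bases: AGGCCT, the palindromic core reported for ZFX binding, TATAAA, the TATA box, GGGCGG, the GC box, and CCAAT, the CCAAT box. The 250 bases shown for S100A4 lie at chr1:153545807-153546056, minus strand. Those for S100A6 lie at chr1:153535992-153536241, minus strand. Those for S100A10 lie at chr1:151993860-151994109, minus strand. Those for S100A11 lie at chr1:152037005-152037254, minus strand. Those for S100P lie at chr4:6693628-6693877, plus strand.
S100A4: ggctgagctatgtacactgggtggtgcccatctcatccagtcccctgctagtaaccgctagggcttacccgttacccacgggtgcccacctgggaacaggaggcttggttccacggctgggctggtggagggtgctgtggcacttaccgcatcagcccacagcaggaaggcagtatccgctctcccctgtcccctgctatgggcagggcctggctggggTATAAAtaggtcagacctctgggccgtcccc
S100A6: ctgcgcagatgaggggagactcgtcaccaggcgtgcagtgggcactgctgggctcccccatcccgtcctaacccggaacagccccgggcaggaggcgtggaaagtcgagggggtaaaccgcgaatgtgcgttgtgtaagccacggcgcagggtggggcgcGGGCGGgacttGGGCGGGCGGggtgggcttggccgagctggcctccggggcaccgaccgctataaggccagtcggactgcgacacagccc
S100A10: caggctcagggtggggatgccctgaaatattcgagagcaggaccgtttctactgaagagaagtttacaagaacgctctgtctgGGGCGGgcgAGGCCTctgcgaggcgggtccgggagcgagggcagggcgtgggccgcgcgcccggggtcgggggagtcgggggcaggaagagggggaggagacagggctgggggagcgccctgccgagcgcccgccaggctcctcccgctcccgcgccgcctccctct
S100A11: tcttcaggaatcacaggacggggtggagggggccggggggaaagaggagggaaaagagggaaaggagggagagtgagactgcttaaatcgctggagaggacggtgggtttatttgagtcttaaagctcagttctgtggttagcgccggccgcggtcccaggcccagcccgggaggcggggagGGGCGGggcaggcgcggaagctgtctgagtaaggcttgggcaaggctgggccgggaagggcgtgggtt
S100P: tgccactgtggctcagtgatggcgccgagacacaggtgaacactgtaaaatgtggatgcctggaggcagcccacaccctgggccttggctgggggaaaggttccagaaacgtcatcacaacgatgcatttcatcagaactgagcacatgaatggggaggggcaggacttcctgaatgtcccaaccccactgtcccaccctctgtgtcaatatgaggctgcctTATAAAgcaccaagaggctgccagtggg

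The letters AGGCCT were in the window of 1 gene, S100A10, of the 9 members that have a window, and in 10.9% of all 35116 RefSeq windows of 300 bases. S100A10 has them 158 bases before its start, next to a GC box at 167. TATAAA stood 31 bases before the start of S100A4 and 28 before that of S100P, and 11.5% of all windows held it. S100A6 held 3 GC boxes, 2 of which overlapped, and S100A11 held 1, in a motif present in 45% of all windows. Some of the 9 members had several starts, which gave 13 windows. A member counted when any of its windows held the letters, whereas the percentages are of single windows, so the measures are unlike. TATAAA was in windows of 6 genes, including all 3 calgranulins, GGGCGG in those of 5 and CCAAT in those of 2. Of all windows, 34.6% held CCAAT. A match describes these letters and no binding was measured.

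**Figure D1:**
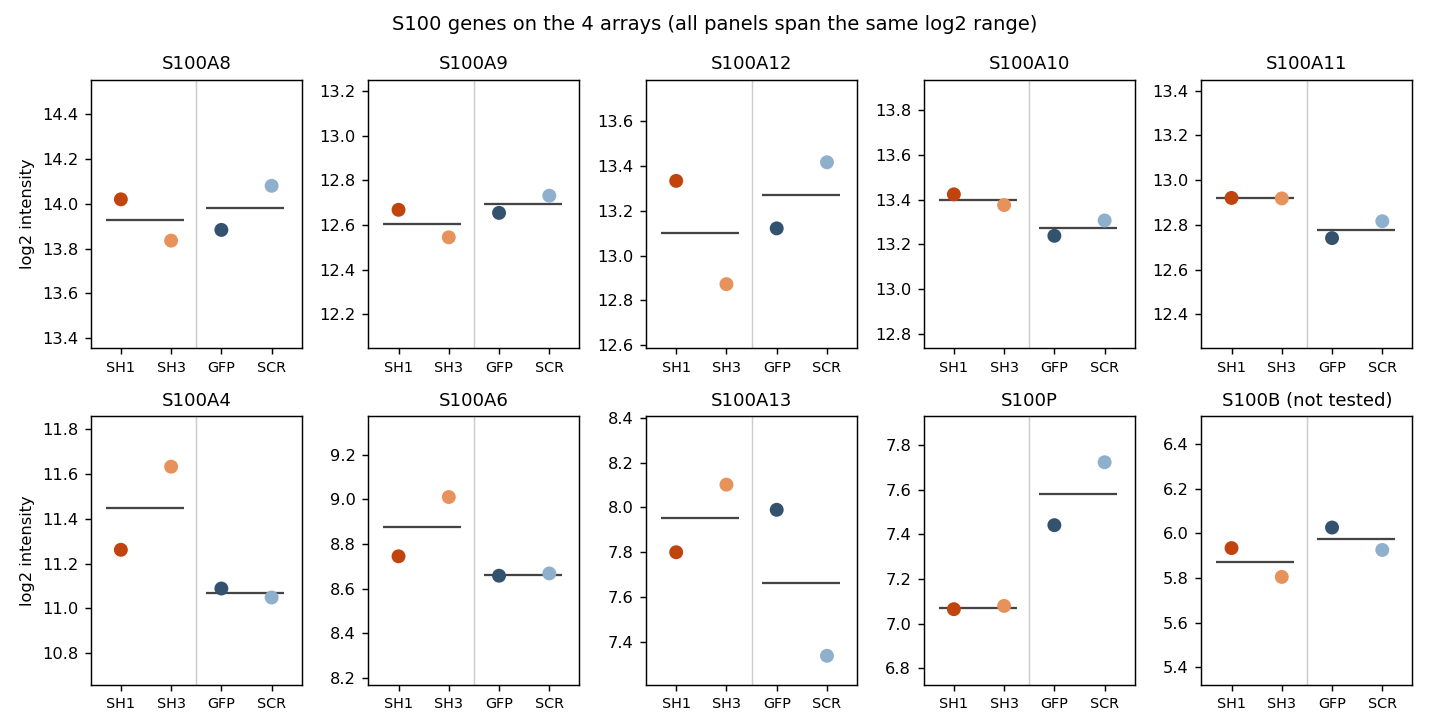
Log2 intensity (y axis) of the 10 S100 genes on the hairpin arrays (SH1, SH3) and the control arrays (GFP for LEN-GFP, SCR); points are arrays, lines are group means and all panels span the same log2 range around their own centre. S100P was near 7.07 on both hairpin arrays, while S100A4 was at 11.26 on SH1 and 11.63 on SH3, and the calgranulins overlapped between the groups.

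ZFX itself checks the labels, and its log2 intensity was 10.13 on SH1 and 10.12 on SH3, against 10.65 on LEN-GFP and 10.66 on SCR. The hairpin arrays thus held 69.7% and 68.9% of the control level. The difference was -0.53 (SE 0.10, unadjusted p = 0.00386, adjusted p = 0.797 in limma), so ZFX itself was not called over the 4 arrays. A difference between the hairpins was not detectable for ZFX (SH3 minus SH1 -0.02, 95% interval -0.32 to 0.29). The line's identity was checked with 9 markers of monocytic leukaemia, of which 7 are on the array under 1 symbol, and all 7 passed the filter. LYZ, CD68 and MPO had a mean log2 intensity over 13. CD14, the monocyte co-receptor for lipopolysaccharide, was only at 7.27 on SH1 and 7.62 on SH3. On LEN-GFP and SCR it was at 7.35 and 7.37. Some markers listed for other cell types were bright too, such as CSF3R of neutrophils (mean 11.96) and NKG7 of natural killer cells (mean 11.90). CSF1R, the M-CSF receptor of monocytes and macrophages, lay above both controls, at 9.92 on SH1 and 9.17 on SH3 against 9.04 on LEN-GFP and 8.89 on SCR (difference 0.58, SE 0.27). Of 5 T cell markers 0 passed the filter. The B cell marker CD79B was below both controls (-0.09, SE 0.11), while CD79A differed by 0.04 and overlapped. Of the fibroblast markers tested, PDGFRB lay above both controls (0.14, SE 0.08), while COL1A1 (0.03) and COL1A2 (-0.14) overlapped. The 4 natural killer markers summed to an intensity of 4279 to 4640 on the hairpin arrays and 5216 to 5368 on the controls, with 2 of 3 tested markers (KLRF1 and NKG7) below both controls, and their part in the S100 values was not tested. NCAM1, the other tested natural killer marker, overlapped between the groups (difference 0.08, SE 0.22). In RNA from whole cultures of a line, fewer cells expressing a gene and less of its RNA per cell cannot be told apart.

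The calgranulins S100A8 and S100A9, which pair to form calprotectin, were near the top of the intensity scale. S100A8 had an intensity of 16615 on SH1 and 14618 on SH3, against 15112 on LEN-GFP and 17326 on SCR, where the highest value of the whole table was 25464. The lowest value was on SH3 and the highest on SCR, and the groups overlapped. S100A8 differed by -0.05 on the log2 scale (SE 0.10, 95% interval -0.31 to 0.20, adjusted p = 0.926 in limma).

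S100A9 was at log2 12.67 on SH1 and 12.54 on SH3, against 12.65 on LEN-GFP and 12.73 on SCR. SH1 lay between the controls and SH3 below them. The difference was -0.09 (SE 0.08, 95% interval -0.30 to 0.13, adjusted p = 0.855 in limma).

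S100A12, a calgranulin that binds RAGE and TLR4 after release, was at log2 13.33 on SH1 and 12.87 on SH3, against 13.12 on LEN-GFP and 13.42 on SCR. SH1 was again inside the span of the controls, and SH3 was the lowest array, at 75.9% of the control mean. Over both hairpins the difference was -0.17 (SE 0.18, 95% interval -0.64 to 0.31, adjusted p = 0.875 in limma). With SH3 alone against the controls S100A12 differed by -0.40 (adjusted p = 0.0512 in limma), where 13.2% of all genes passed, and with SH1 alone by 0.06 (adjusted p = 0.965), where 0.419% did. Set directly against each other, SH3 minus SH1 gave -0.46 (95% interval -0.76 to -0.17, adjusted p = 0.0630 in limma), with 8.49% of all genes past the threshold.

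SH3 was the lowest array for all 3 calgranulins, and other myeloid markers differed in both directions there. MPO, the myeloperoxidase of primary granules, differed from the control mean by -1.02 on SH3 and -0.03 on SH1. MMP8, the neutrophil collagenase, differed by -2.80 on SH3 and 0.47 on SH1, but SCR also lay 1.55 above LEN-GFP. LYZ differed by -0.13 on SH3 and -0.00080 on SH1. The other monocytic markers lay above the control mean on SH3, with CD4 at 0.44, ITGAM at 0.37, CD14 at 0.26, CSF1R at 0.21 and CD68 at 0.05. So did the neutrophil markers CSF3R at 0.27, CXCR2 at 0.04 and LTF, a granule gene below the filter, at 0.14. The part of these markers in the calgranulin values was not tested.

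S100A10, the p11 light chain of the annexin A2 tetramer, was at log2 13.42 on SH1 and 13.38 on SH3, against 13.24 on LEN-GFP and 13.31 on SCR. Both hairpin arrays were above both controls, by a gap of 0.07 between the nearest arrays. It differed by 0.13 (SE 0.06, 1.09-fold, 95% interval -0.04 to 0.29, adjusted p = 0.797 in limma). ANXA2, its annexin partner, was at 12.59 and 12.52 on SH1 and SH3 and at 12.45 and 12.59 on LEN-GFP and SCR, with a difference of 0.04 (SE 0.09).

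S100A11, a partner of annexin A1 in membrane repair and growth control, had the closest agreement of the hairpins, with 12.92 on both SH1 and SH3, against 12.74 on LEN-GFP and 12.82 on SCR. The gap to the nearer control was 0.10. The difference was 0.14 (SE 0.07, 110.2% of control, 95% interval -0.04 to 0.32, adjusted p = 0.797 in limma), and SH3 minus SH1 was -0.0021 (95% interval -0.21 to 0.21). ANXA1 differed by -0.02 (SE 0.09), with overlapping groups.

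S100A4, a partner of non-muscle myosin that is linked to cell motility, was at log2 11.26 on SH1 and 11.63 on SH3, against 11.09 on LEN-GFP and 11.05 on SCR. The controls were within 0.04 of each other, both hairpin arrays were above them, and SH3 stood further out, at 148% of the control mean against 114% for SH1. The difference over both hairpins was 0.38 (SE 0.15, 1.30-fold, 95% interval -0.01 to 0.77, adjusted p = 0.797 in limma). S100A4 was the only one of the 9 genes to pass in any fit with 1 array left out: SH3 alone against the controls gave 0.56 (adjusted p = 0.00891 in limma, with 6.27% of all genes called higher in that fit). SH1 alone gave 0.19 (adjusted p = 0.635). SH3 minus SH1 was 0.37 (95% interval 0.10 to 0.64, unadjusted p = 0.0125, adjusted p = 0.0989 in limma), so the hairpins were not shown to differ after adjustment. MYH9, the heavy chain of its myosin partner, lay above both controls as well, at 11.59 and 11.81 on SH1 and SH3 and 11.48 on both LEN-GFP and SCR (difference 0.22, SE 0.11, adjusted p = 0.797 in limma).

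S100A6, or calcyclin, a growth-linked member that binds CACYBP, was at log2 8.74 on SH1 and 9.01 on SH3, against 8.66 on LEN-GFP and 8.67 on SCR. Both hairpins were above the controls, with SH1 only 0.08 above the nearer one. The difference was 0.21 (SE 0.14, 1.16-fold, 95% interval -0.14 to 0.57, adjusted p = 0.806 in limma). With SH3 alone it was 0.35 (adjusted p = 0.156 in limma) and with SH1 alone 0.08 (adjusted p = 0.965). CACYBP differed by 0.08 (SE 0.10).

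S100A13, which takes part in the unconventional secretion of FGF1 and interleukin-1 alpha, was at log2 7.80 on SH1 and 8.10 on SH3, against 7.99 on LEN-GFP and 7.34 on SCR. Its controls were the farthest apart of the 10 genes, 0.65 with SCR the lower, and LEN-GFP lay between the hairpin arrays. The difference of 0.29 (SE 0.25, 95% interval -0.35 to 0.92, adjusted p = 0.844 in limma) depended on the control used. It was 0.61 against SCR and -0.04 against LEN-GFP.

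S100P, a member first found in placenta that binds ezrin and RAGE, had an intensity of 134 on SH1 and 135 on SH3, against 174 on LEN-GFP and 211 on SCR. On the log2 scale these are 7.07 and 7.08, against 7.44 and 7.72. SH3 was 0.0145 above SH1, and both lay at least 0.36 below the nearer control, the widest gap of the 10 genes. The difference was -0.51 (SE 0.12, 95% interval -0.82 to -0.20, unadjusted p = 0.00828, adjusted p = 0.797 in limma). The interval, which is not adjusted for the number of genes, leaves out 0 for S100P alone among the 9. The hairpins were at 69.9% (SH1) and 70.6% (SH3) of the control level. Without LEN-GFP the difference was -0.65 and without SCR -0.37. S100P is dim, since its intensities lie not far above the filter (104.2), and no detection call is given for the probe set.

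S100B, known from glia and melanocytes, had intensities of 61.1 on SH1 and 55.9 on SH3, against 65.1 on LEN-GFP and 60.8 on SCR. All 4 were under the filter, and the groups overlapped.

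**Figure D2:**
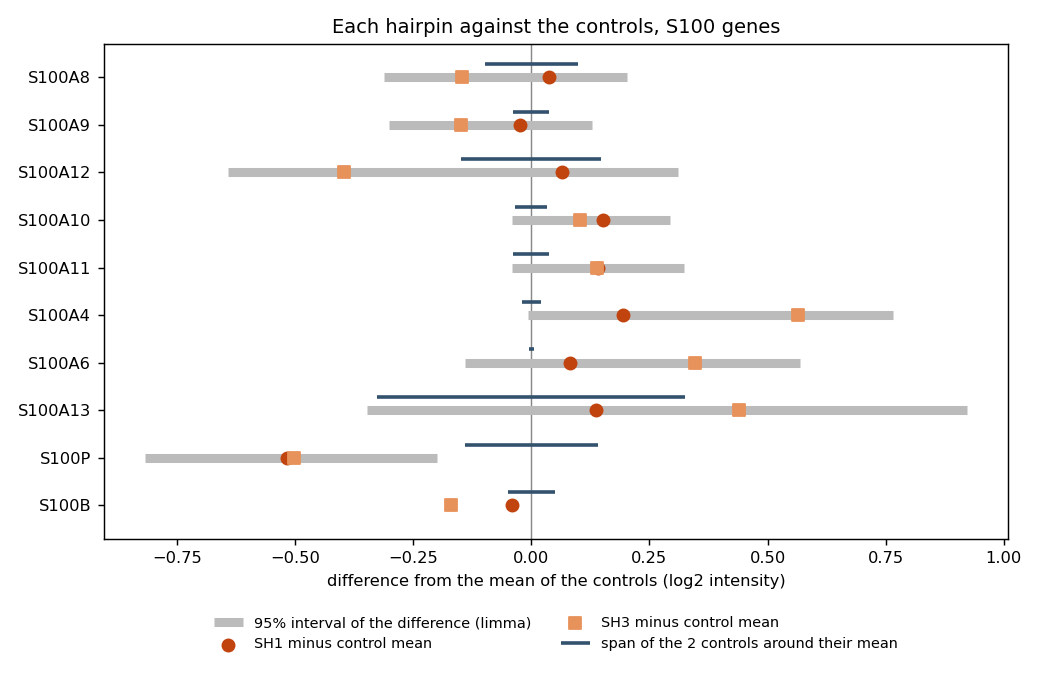
Difference in log2 intensity from the mean of the controls (x axis) for SH1 (circles) and SH3 (squares), with limma's 95% interval of the group difference (grey, absent for S100B, which was not tested) and the span of the 2 controls (blue). S100P lay at -0.52 and -0.50 on SH1 and SH3, S100A11 at 0.14 on both, and S100A4 at 0.19 and 0.56, while the controls of S100A13 spanned 0.65.

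On chromosome 1 the 8 members there fall into a pair, S100A10 and S100A11, and a second block from S100A9 to S100A1, with skin genes between them. The 3 calgranulins are neighbours and had negative differences (-0.09 for S100A9, -0.17 for S100A12, -0.05 for S100A8), but SH1 was above the control mean for S100A12 (0.06) and S100A8 (0.04). The sign turned for S100A8 without SH3 (0.04) or without SCR (0.04), and for S100A12 without SH3 (0.06). S100A6 and S100A4, separated by the dim gene S100A5, had positive ones. S100A3, the next gene, was 0.53 above the control mean on SH3 but at -0.0051 on SH1, with SCR 0.41 above LEN-GFP. S100A13 overlaps S100A1 in the RefSeq annotation, and S100A1 differed by 0.03 (SE 0.08). In the whole stretch from S100A10 to S100A1 RefSeq lists 63 protein-coding genes, of which 58 were on the array under 1 symbol and 30 were tested. Of the 22 tested genes there that are not members, mostly skin genes, 16 differed upward and 6 downward, beside 49.2% upward among all genes. The controls differed in 1 direction there too, with SCR above LEN-GFP for all of the 22 but LCE2D, LCE1F and LCE1D. Over all genes tested the median of SCR minus LEN-GFP was -0.03. The part of this difference between controls in the upward count was not tested. Of these 22, 4 lay above both controls (LCE3C, KPLCE, LCE1A and SPRR2G, named after their values were seen), and 0 below both, where 18.2% of all genes lay above and 19% below.

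**Figure D3:**
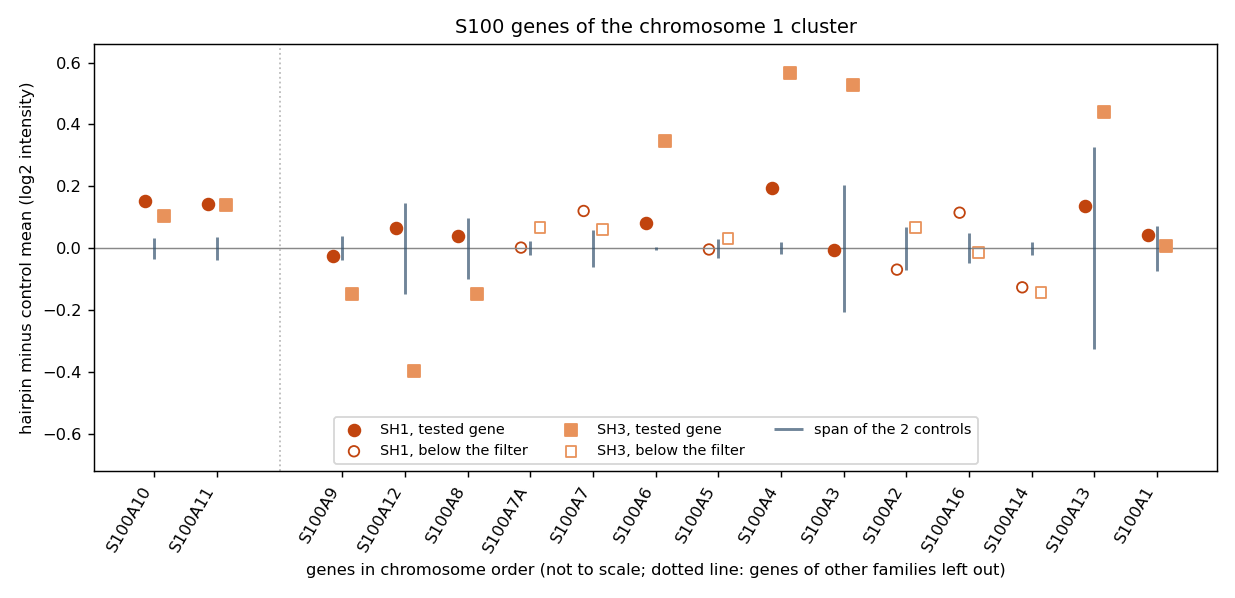
Hairpin minus control mean in log2 intensity (y axis) for the S100 genes of chromosome 1 in chromosome order (x axis, not to scale); filled symbols are tested genes, open symbols genes below the filter, and bars the span of the 2 controls. On SH3, S100A12 lay at -0.40 and S100A6, S100A4, S100A3 and S100A13 between 0.35 and 0.56.

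The other S100 genes were mostly dim. Of 11 listed, 3 were tested (S100A1, S100A3 and S100PBP, the last a binding protein of S100P and not itself a family member), 0 passed and all 3 overlapped between the groups. S100PBP was at 10.83 on SH1 and 11.10 on SH3, against 10.85 on LEN-GFP and 10.66 on SCR. Of the 7 fused-type S100 genes, structural proteins of skin, 6 were on the array and 1 was tested (CRNN, difference 0.04, SE 0.08).

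Annexins bind membranes in the presence of calcium. Of 9 annexins tested 0 passed in limma, 6 differed upward and 3 downward, with a median of 0.02, where the median over all genes was -0.0029. The annexin median was -0.05 on SH1 and 0.02 on SH3, both against the same controls, so its sign turned without SH3. ANXA3 (-0.35, SE 0.17) and ANXA4 (-0.15, SE 0.12) were below both controls. ANXA6 was 0.72 above the control mean on SH3 and at -0.0096 on SH1, with controls 0.53 apart.

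Among 9 tested binding partners inside the cell, 7 differed upward and 2 downward (median 0.06, with 0.04 without LEN-GFP and 0.03 with no filter on dim genes) and 0 passed. MDM2, the ubiquitin ligase of p53, was at 12.61 on SH1 and 12.42 on SH3, against 12.75 on LEN-GFP and 12.92 on SCR (difference -0.32, SE 0.11, unadjusted p = 0.0311, adjusted p = 0.797 in limma). IQGAP1, a scaffold of the actin cytoskeleton, differed by 0.10 (SE 0.08) with both hairpins above the controls.

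For the receptors of released S100 proteins and their signalling, 9 genes were tested, 6 differed upward and 3 downward (median 0.03), and 0 passed. The medians of the single hairpins had opposite signs, -0.07 on SH1 and 0.26 on SH3, both against the same controls, and the median was 0.08 without LEN-GFP and 0.09 without SCR. LY96, the TLR4 co-receptor MD-2, was at 10.32 on SH1 and 10.71 on SH3, against 9.97 on LEN-GFP and 10.06 on SCR, above both controls (difference 0.50, SE 0.16, unadjusted p = 0.0282, adjusted p = 0.797 in limma). TLR4 itself overlapped, at 11.18 on SH1 and 10.66 on SH3 against 10.81 on LEN-GFP and 11.28 on SCR. AGER was 0.50 above the control mean on SH3 and at -0.05 on SH1. BSG, a receptor of S100A9, was below both controls by a narrow gap (difference -0.19, SE 0.11).

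Of 10 transcription factors of myeloid or inflammatory genes, some of them linked to the calgranulins, 5 differed upward and 5 downward (median 0.03), and 0 passed. Their median was 0.11 without SH1, 0.07 without SCR and 0.03 without SH3. KLF4 was at 9.63 on both SH1 and SH3, against 9.43 on LEN-GFP and 9.44 on SCR (difference 0.19, SE 0.11, adjusted p = 0.797 in limma). IRF7, an interferon regulatory factor, differed by 0.24 (SE 0.11), also above both controls. CEBPA, CEBPB and CEBPD, C/EBP factors of myeloid cells, and SPI1 (PU.1) overlapped between the groups, with differences of -0.08, -0.06, -0.02 and -0.02. CEBPE, another C/EBP factor, overlapped as well (0.08), as did IRF8 (0.20), HIF1A (0.19) and STAT3 (-0.02).

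**Figure D4:**
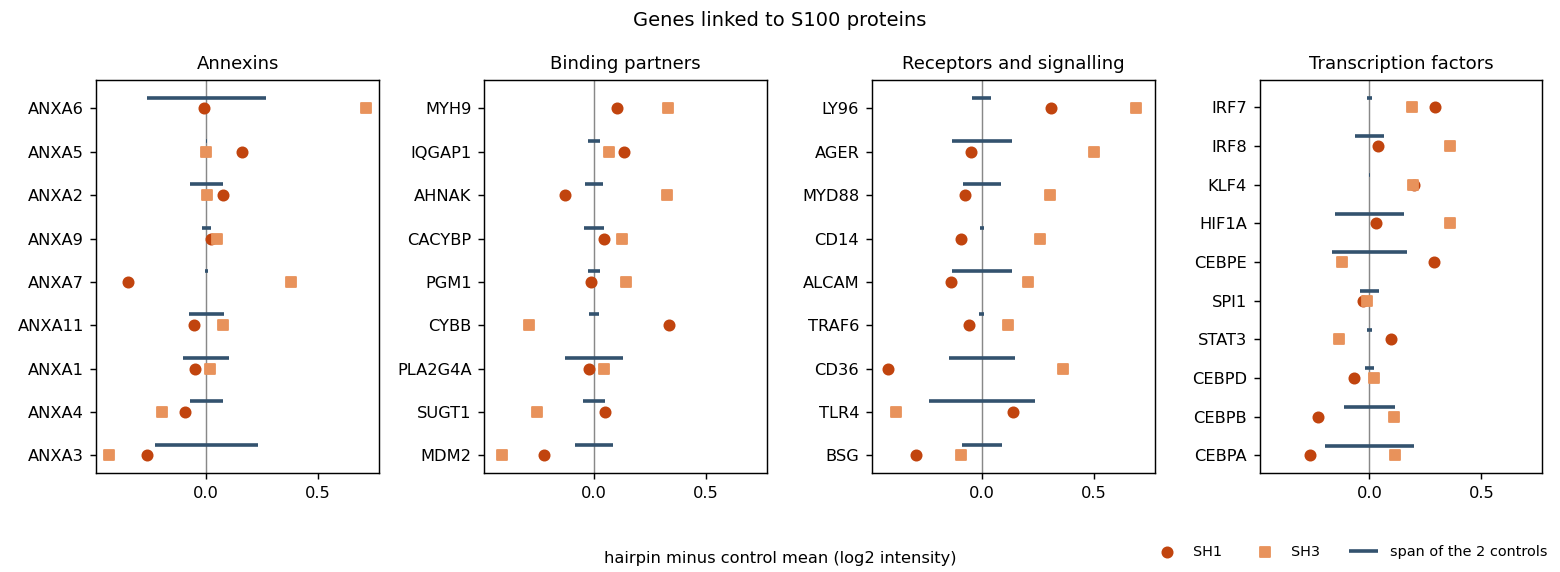
Hairpin minus control mean in log2 intensity (x axis) for the tested annexins, binding partners, receptors with their signalling genes and transcription factors; circles are SH1, squares SH3 and bars the span of the 2 controls. LY96 lay at 0.31 on SH1 and 0.69 on SH3, MDM2 at -0.22 and -0.41, and KLF4 at 0.20 and 0.19.

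The genes most like a member were sought for the 3 members with the largest range over the 4 arrays, by the Euclidean distance between log2 profiles centred on their own mean. For S100A4 these were ARHGAP11B (distance 0.0289), GLRX (0.0362), a glutaredoxin, and CD300LF (0.0407), an inhibitory receptor of myeloid cells. GLRX was at 11.39 on SH1 and 11.79 on SH3, against 11.26 on LEN-GFP and 11.21 on SCR. For S100P they were OR5B21 (0.0631), IQCK (0.0933) and SNORA21 (0.113), and for S100A13 TAS2R31 (0.0935), PUS10 (0.105) and ZBTB20 (0.122). With 4 arrays and 12892 genes such close profiles are a description only.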

How the data were processed

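NOMO-1 RNA for 4 arrays was extracted with Trizol, and 200 ng each was labelled with the Ambion WT kit, per the labels' protocols. The authors deposited 1 table of linear intensity values for 33297 probe sets. Affymetrix Expression Console 1.1 and RMA are named in the submitters' processing notes, and how the values came to be linear is not given here. RMA usually includes a quantile step, which hides a change in the total RNA of a cell, and it can compress differences of dim and of very bright genes. Median intensities were 184.8 to 189.8. No detection call or depth is given, and the number of arrays limits the precision.

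Here, log2 of each intensity was taken without an offset. Names came from the platform annotation (19460 probe sets with 1 symbol, 1754 with several, 12083 unnamed). Per gene the probe set of highest mean was kept, and the lowest 30% of genes (5525) were left out. limma 3.58.1 (R 4.3.3) was used to compare the groups (eBayes with trend, 2 residual and 2.95 prior degrees of freedom), two-sided, with Benjamini-Hochberg adjustment over all 12892 genes tested. In fits without 1 array, and in those of SH3 against SH1 (added after seeing the data), a lone array is assumed to vary like the remaining pair. Only the limma fit was tested on simulated data, with changes larger than any difference seen for the S100 genes. Alternatives were each array left out, the filter, an offset of 16, no trend, ordinary statistics, median centring and the mean of a gene's probe sets.

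The 10 members, ZFX, and up to 4 genes per list or marker set with the widest gap between groups were named. Others are named as partners of a member, as markers, or for their place, and were chosen after their values were seen. The members and lists were chosen with earlier results of these data known.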

Additional observations from a re-analysis of the deposited data

How the results depend on the processing

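Of 99 values of the S100 genes and ZFX under the alternatives, 93 kept their sign and their side of the threshold. This count includes settings that cannot move a difference: the filters, the trend, and the mean of probe sets, since each gene has 1. The 4 turned signs and the 2 values newly past the threshold all came from fits with 1 array left out. S100A4 and ZFX passed in limma without SH1 (0.56 and -0.54). Signs turned in 4: S100A8 without SH3 (0.038) or without SCR (0.044), S100A12 without SH3 (0.065) and S100A13 without SCR (-0.039). Under the other settings (no filter, the lowest 50% of genes left out, an offset of 16, no trend, ordinary statistics, centring, mean of probe sets) 0 genes passed over all genes. With 1 array left out, the genes called ranged from 0 to 1698 (1698 without SH1, 54 without SH3), S100 genes called from 0 to 1 (1 without SH1), S100 genes above the controls on average from 5 to 7, and S100 genes without overlap from 5 to 9, with 9 without SH1 (78.5% of all genes tested had no overlap then) and 9 without LEN-GFP (63.8%), and 5 without SH3 (69.4%) or without SCR (62.7%). With only 3 arrays a group of 1 array overlaps less often by construction, and the other causes were not tested. Ranges with 1 array left out were -0.15 to 0.044 for S100A8, -0.15 to -0.02 for S100A9, -0.40 to 0.065 for S100A12, 0.09 to 0.16 for S100A10, 0.10 to 0.18 for S100A11, 0.19 to 0.56 for S100A4, 0.08 to 0.35 for S100A6, -0.039 to 0.61 for S100A13 and -0.65 to -0.37 for S100P. No paired analysis was possible because the labels give the arrays no shared replicate numbers. Array medians over the genes tested were 9.14 to 9.23, and the dim signals of S100P and S100B limit what their values show.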
